A study of Mus musculus with 14 samples.

Results

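The 35 nuclear genes described here encode subunits of mitochondrial complex I, the NADH:ubiquinone oxidoreductase. They were taken by symbol through Ensembl identifiers in GENCODE M21, out of 55487 genes in the count table, and a few known subunits are not in the list. All 35 were among the 15528 genes that passed the filter on low counts, with at least 1506 reads in every library. RNA was sequenced from whole hearts of untreated male C57BL/6 mice in 4 groups: 4 knockout hearts at 15 months of age, 4 wild-type hearts at 15 months, 3 knockout hearts at 2 months and 3 wild-type hearts at 2 months. The knockout (Myh6-Cre-Sqstm1fl/fl) lacks p62, the autophagy receptor encoded by Sqstm1, in cells where the Myh6 promoter drives Cre recombinase, that is in cardiac muscle cells. The other cells of the heart keep the gene, and the labels give the wild-type hearts neither Cre nor a floxed allele. The study's title concerns p62, Nrf2 protein and oxidative stress in the heart. Knockout was set against wild type within each age, and 15 against 2 months within each genotype. Nothing in the labels tells whether hearts within a group were processed apart, and p-values therefore measure only the spread between these libraries, which may be partly technical.

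Complex I takes electrons from NADH, passes them along iron-sulfur clusters to ubiquinone and pumps protons across the inner mitochondrial membrane. It is the largest complex of the respiratory chain, it is abundant in the heart, and it is a known source of superoxide. Catalytic core subunits hold the flavin and the iron-sulfur clusters in an arm that reaches into the matrix, mitochondrially encoded core subunits form the proton pump in the membrane arm, and many small accessory subunits surround both. The nuclear-encoded subunits are made in the cytosol and imported. Of the 35 genes, 6 encode core subunits, 9 accessory subunits of the matrix arm, 19 accessory subunits of the membrane arm, and 1, Ndufab1, the mitochondrial acyl carrier protein found in both arms.

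Library totals ranged from 20218992 to 30404416 counts, of which 27.5% to 46.0% fell on mitochondrially encoded genes. Sqstm1 was at 14.6 to 37.0 CPM (counts scaled to library size) in the knockout hearts at 15 months and at 173 to 238 CPM in wild type, and at 14.7 to 19.2 CPM in the knockout hearts at 2 months and at 139 to 177 CPM in wild type (exact two-sided permutation p = 0.0286 for 4 against 4 hearts and 0.1 for 3 against 3, the smallest these designs allow). All 8 cardiac muscle markers had at least 17040 counts in every library. Wild-type replicate 1 at 2 months stood apart by atrial transcripts, which summed to 1633 CPM there and to 2.57 to 217 CPM in the others. Each library was also given a length slope, the regression of its log2 CPM, relative to the mean of 14 libraries, on the log2 exon length of the genes tested. A positive slope means that long genes were high and short genes low. It lay between −0.18 and −0.01 in all 6 libraries at 2 months. At 15 months it was positive in 6 of 8, and −0.09 in knockout replicate 1 and −0.07 in wild-type replicate 2.

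Most of these genes are short. The representative transcripts ran from 315 nt (Ndufc1) to 3479 nt (Ndufab1), with a median of 763 nt, and 23 of 35 were under 1000 nt. The exon length over all annotated transcripts was shortest for Ndufa1 (chromosome X, 37187588 to 37191163, minus strand, GRCm38, as for all coordinates here; 419 bp) and longest for Ndufs1 (chromosome 1, 63143596 to 63176833, minus strand; 8086 bp). Per kilobase of representative transcript, the mean level over 14 libraries was highest for Ndufb8, a membrane-arm accessory subunit, at 1253 CPM per kb, followed by Ndufb9 at 863 CPM per kb. It was lowest for Ndufab1 at 95.0 CPM per kb and for the matrix-arm subunit Ndufs4 at 124 CPM per kb, so the 35 levels spanned 13.2-fold. Among the core subunits it was 337 CPM per kb for Ndufv2, 297 for Ndufs7, 209 for Ndufs8, 202 for Ndufv1, 158 for Ndufs1 and 147 for Ndufs3. The ranges of neighbours in this order overlapped between libraries, for example Ndufb8 at 454 to 2556 CPM per kb and Ndufb9 at 330.0 to 1771 CPM per kb. Both were lowest in knockout replicate 3 at 15 months and highest in wild-type replicate 2 at 2 months. Within each of these libraries Ndufb8 was above Ndufb9. Exons of 13 members overlap exons of another gene on the opposite strand and 3 on the same strand. For 11 members another annotated gene holds a copy of at least 95% identity over 100 bases or more. For Ndufb2, Ndufb8 and Ndufb9 that gene is the one that overlaps them on the same strand. Counts on any such copy were at most 1.1% of those on the member.

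The genes varied together from heart to heart. Wild-type replicate 2 at 2 months held the highest level of 27 of the 35, and knockout replicate 3 at 15 months the lowest level of 27. The ratio of the highest to the lowest library was 1.29 for Ndufa10 and 6.33 for Ndufa7, with a median of 3.13. The median over the 35 genes of log2 CPM minus each gene's mean was 0.22, −0.57, −0.88 and −0.31 in the 4 knockout hearts at 15 months, and −0.38, 0.21, −0.46 and −0.26 in the wild-type hearts of that age. At 2 months it was 0.58, 0.26 and 0.45 in knockout hearts and −0.05, 0.75 and 0.42 in wild type. Replicate 1 of the knockout and replicate 2 of the wild type were thus the high libraries at 15 months, and wild-type replicate 1 was the low one at 2 months. With bulk RNA from whole hearts, fewer cells of a type and less RNA per cell cannot be told apart.

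**Figure D1:**
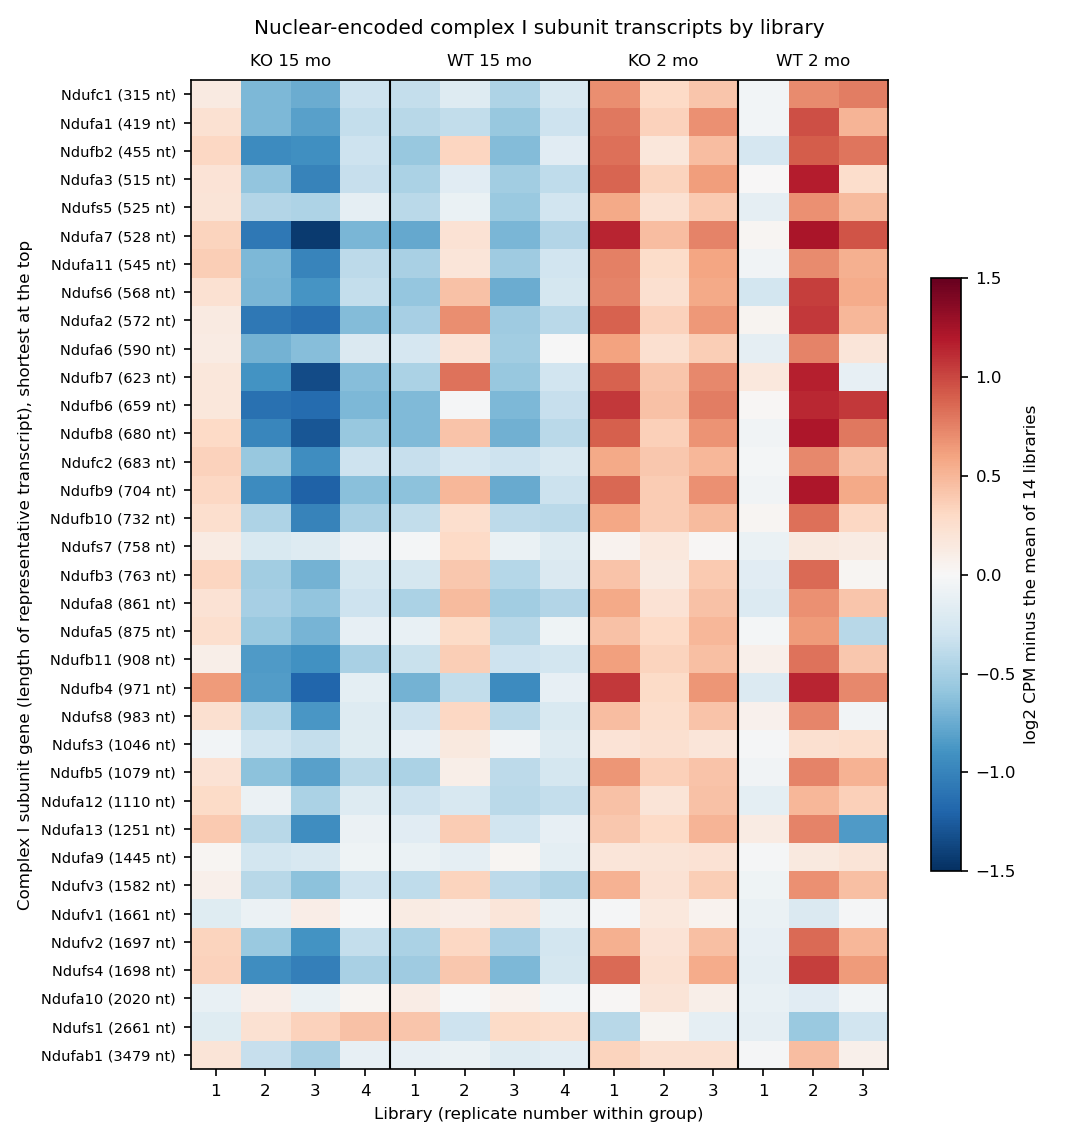
Colour gives the log2 CPM of each subunit gene in each of 14 libraries minus its mean over the libraries, with genes ordered from the shortest representative transcript (315 nt) at the top to the longest (3479 nt) at the bottom. Most genes are red at 2 months, wild-type replicate 1 excepted, and blue at 15 months, with knockout replicate 1 and wild-type replicate 2 at 15 months on the red side, while Ndufs1, Ndufv1 and Ndufa10 run the other way or hardly vary.

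Within groups, after subtracting each group's mean, the median Pearson correlation of log2 CPM over the 595 pairs of genes was 0.844 across 14 libraries, with a range of −0.902 to 0.996, and 83.9% of the pairs were above 0. These values share libraries and scaling, and are a description. Of the 35 genes, 29 had a correlation above 0.8 with the mean of the others, and Ndufb8 (0.99) and Ndufv2 (0.99) followed it most closely. Ndufs1 (−0.83), Ndufv1 (−0.57) and Ndufa10 (−0.43) ran against the rest. Ndufs1 encodes the largest iron-sulfur subunit, Ndufv1 the subunit that binds flavin and oxidises NADH, and Ndufa10 a membrane-arm accessory subunit. All 3 have long transcripts for this set (2661, 1661 and 2020 nt), and all 3 were lowest in wild-type replicate 2 at 2 months, where 27 others were highest. Ndufv2 (1697 nt), Ndufs4 (1698 nt) and Ndufab1 (3479 nt) are also long, and they followed the mean of the others (0.99, 0.98 and 0.90 in that order). The median standard deviation within groups was 0.37 on the log2 scale, against 0.31 over all genes tested.

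Promoter sequence was compared because the genes moved together between hearts. RefSeq windows of 250 bases before the transcription start (GRCm38.p6) were found for 32 of the 35 genes and for 27025 genes in all. Binding motifs of factors known to act on respiratory genes were searched on both strands. Genes were counted if any of their windows held a match. The NRF1 motif (GCGCA, then any base, then GCGC) was in 6 of the 32 genes (18.75%), against 4.23% of the 27025 genes. The ETS motif CCGGAAG of the GABP factor was in 3 (9.38%) against 7.83%, the ERR motif AAGGTCA in 3 (9.38%) against 4.70%, and the YY1 motif AAGATGGCG in 0 against 0.71%. The SP1 motif GGGCGG was in 14 (43.75%) against 35.4%, CCAAT in 10 (31.25%) against 37.5%, and TATAAA in 4 (12.5%) against 14.3%. Matches describe letters in these windows and no binding was measured. The windows of Ndufb6, the member with the smallest p between ages in knockout, of Ndufs5 and Ndufb4, whose whole windows hold both NRF1 and ERR motifs, and of Ndufv1, which holds none of NRF1, ETS, ERR and YY1, are given 5′ to 3′ on the minus strand, without bases that lie inside the annotated gene, and capitals mark matches to these 4 motifs. Ndufb4 holds 3 NRF1 matches and 1 ERR match in its whole window, of which 1 NRF1 match is in the stretch shown. The ERR match lies among the bases left out. Ndufb8 and Ndufv2, which followed the mean of the other members most closely, hold none of these 4 motifs either. A link between motifs and the shared movement was not tested.
Ndufb6 (chr4:40279422-40279671): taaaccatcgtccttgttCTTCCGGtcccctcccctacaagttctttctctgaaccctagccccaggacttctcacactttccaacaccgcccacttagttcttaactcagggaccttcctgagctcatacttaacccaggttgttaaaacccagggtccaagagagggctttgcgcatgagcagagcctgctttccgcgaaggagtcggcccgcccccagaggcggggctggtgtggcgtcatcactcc
Ndufs5 (chr4:123718203-123718436): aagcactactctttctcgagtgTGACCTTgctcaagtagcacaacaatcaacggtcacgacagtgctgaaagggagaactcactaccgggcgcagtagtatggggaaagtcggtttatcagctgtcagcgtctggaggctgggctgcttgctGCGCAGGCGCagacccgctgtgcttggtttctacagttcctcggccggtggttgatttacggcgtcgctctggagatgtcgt
Ndufb4 (chr16:37654454-37654618): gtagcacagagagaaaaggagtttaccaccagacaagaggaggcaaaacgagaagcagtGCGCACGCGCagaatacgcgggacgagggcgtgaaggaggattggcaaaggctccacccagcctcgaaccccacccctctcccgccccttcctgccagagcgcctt
Ndufv1 (chr19:4012807-4013005): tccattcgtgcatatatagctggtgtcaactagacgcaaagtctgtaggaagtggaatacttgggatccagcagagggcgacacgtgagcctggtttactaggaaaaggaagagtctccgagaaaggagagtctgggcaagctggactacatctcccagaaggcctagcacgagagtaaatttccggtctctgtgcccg

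At 2 months no subunit gene differed between knockout and wild-type hearts beyond the threshold. Of the 35, 25 had a log2 fold change above 0 and 10 below, with a median of 0.05, against −0.00 over all genes tested, of which 50.3% were below 0. None passed at a Benjamini-Hochberg adjusted p of 0.05 in edgeR's quasi-likelihood test (lowest adjusted p = 0.9997), where 0.00644% of all genes did, the single gene Sqstm1. None was below an unadjusted p of 0.05, against 3.18% of all genes, for none was every knockout heart below every wild-type heart, against 3.72% of all genes, and DESeq2 and limma voom called 0 of the 35 as well. The median depended on single hearts: it was −0.13 (27 below 0) without wild-type replicate 1, 0.25 (0 below 0) without wild-type replicate 2, −0.01 (19 below 0) without knockout replicate 1, 0.12 (1 below 0) without knockout replicate 2 and 0.08 (9 below 0) without wild-type replicate 3.

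The 3 members with the smallest p at 2 months were Ndufa10, Ndufv1 and Ndufa5, all higher in knockout on average. Ndufa10 was at 454, 515 and 476 CPM in knockout hearts and at 415, 398 and 436 CPM in wild type. Every knockout heart was above every wild-type heart, the only one of the 35 genes for which the groups did not overlap, and 4.43% of all genes were separate in this direction. Its log2 fold change was 0.21 (SE 0.13, edgeR adjusted p = 0.9997). Ndufv1 was at 329, 374 and 345 CPM in knockout and at 312, 289 and 331 CPM in wild type, and the groups overlapped (0.17, SE 0.13). Ndufa5, an accessory subunit of the matrix arm, was at 318, 289 and 332 CPM in knockout and at 231, 365 and 176 CPM in wild type, where the 3 hearts spread over the whole knockout range and beyond (0.28, SE 0.28). Ndufs1 gave 0.16 (SE 0.21), Ndufs8 0.10 (SE 0.27) and Ndufs3 0.04 (SE 0.14), all core subunits of the matrix arm. Ndufs7, which carries the last iron-sulfur cluster before ubiquinone, gave 0.02 (SE 0.16), and Ndufv2, whose cluster lies near the flavin, −0.06 (SE 0.31). Ndufa1, a small membrane subunit, gave 0.08 (SE 0.27) and Ndufb8 −0.08 (SE 0.41).

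At 15 months 29 of the 35 log2 fold changes between knockout and wild type were below 0 and 6 above, with a median of −0.12, against 0.01 over all genes tested, of which 48.3% were below 0. None passed in edgeR's quasi-likelihood test (lowest Benjamini-Hochberg adjusted p = 0.999; all genes 0.00644%, again Sqstm1). None was below an unadjusted p of 0.05, against 3.97% of all genes, and for none did the groups separate, against 0.76% of all genes higher and 1.23% lower. DESeq2 and limma voom called 0 members. The median was −0.36 (33 below 0) without knockout replicate 1, the knockout heart with the highest subunit levels, −0.05 (25 below 0) without knockout replicate 2, −0.00 (19 below 0) without knockout replicate 3, which had the lowest levels, and 0.04 (13 below 0) without wild-type replicate 2, the highest wild-type heart. Without knockout replicate 1, 0 members passed at an adjusted p of 0.05 in edgeR, and 0.0192% of all genes did.

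Ndufb11, an X-linked membrane-arm subunit (chromosome X, 20615326 to 20617619, minus strand), had the smallest p at 15 months. Its levels were 204, 106, 102 and 137 CPM in knockout hearts and 153, 248, 155 and 158 CPM in wild type. Of the 4 knockout hearts 3 were below all wild-type hearts, and replicate 1 was above 3 of them (log2 fold change −0.38, SE 0.23). Ndufa2, a matrix-arm subunit with a thioredoxin-like fold, was at 121, 52.4, 50.3 and 70.5 CPM in knockout and at 78.0, 179, 76.5 and 83.3 CPM in wild type (−0.50, SE 0.33). Ndufb7, a membrane-arm subunit facing the intermembrane space, was at 186, 88.2, 64.7 and 106 CPM in knockout and at 119, 288, 111 and 135 CPM in wild type (−0.56, SE 0.37). In both genes the high library was replicate 1 among knockout hearts and replicate 2 among wild-type hearts. Of the core subunits Ndufs3 gave −0.16 (SE 0.12), Ndufs8 −0.13 (SE 0.23), Ndufv1 −0.12 (SE 0.12), Ndufv2 −0.10 (SE 0.27), Ndufs7 −0.09 (SE 0.13) and Ndufs1 0.04 (SE 0.18). Ndufa1 gave 0.07 (SE 0.23) and Ndufb8 −0.24 (SE 0.35). Markers of other cells differed in both directions in this comparison, and their part in the result was not tested. All 7 endothelial markers were above 0, with a median of 0.56 and sums of 751 to 1492 CPM in knockout and 712 to 946 CPM in wild type, and so were all 8 fibroblast markers, with a median of 0.48 and sums of 629.9 to 1011 CPM in knockout and 373 to 765 CPM in wild type. Of 7 macrophage markers 5 were above 0 (median 0.07; sums of 96.1 to 136 CPM in knockout and 76.5 to 140.1 CPM in wild type). On the side of the subunit genes were all 3 skeletal muscle markers tested (median −0.87), which summed to 1090 to 1212 CPM in knockout and 1316 to 1482 CPM in wild type with no overlap. Of these Acta1 and Ckm are also expressed in the heart, and Myh4, which defines fast skeletal fibres, was at 0 in all 14 libraries. Also below 0 were 4 of 6 smooth muscle and pericyte markers (median −0.17; 798 to 1061 CPM in knockout and 721 to 1024 CPM in wild type), 4 of 4 atrial markers (median −0.73; 5.56 to 140.1 CPM in knockout and 2.57 to 217 CPM in wild type) and 3 of 3 fat cell markers (median −0.38; 0.035 to 4.10 CPM in knockout and 0.65 to 5.97 CPM in wild type).

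The 15-month comparison was repeated with the length slope taken into account. With the slope as a covariate the median was 0.01, and 17 of 35 genes were below 0. With a length curve per library removed it was −0.07 for exon length and −0.05 for representative transcript length. In these 3 settings Ndufa12, a matrix-arm subunit related to the assembly factor Ndufaf2, gave 0.32 (SE 0.11), 0.28 (SE 0.12) and 0.30 (SE 0.11), Ndufs5 0.26 (SE 0.10), 0.24 (SE 0.11) and 0.28 (SE 0.12), and Ndufb11 −0.22 (SE 0.09), −0.30 (SE 0.11) and −0.30 (SE 0.11). The lowest Benjamini-Hochberg adjusted p of a member was 0.80 in edgeR under these settings, so none passed. Of all genes 0.00644% passed in each.

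**Figure D2:**
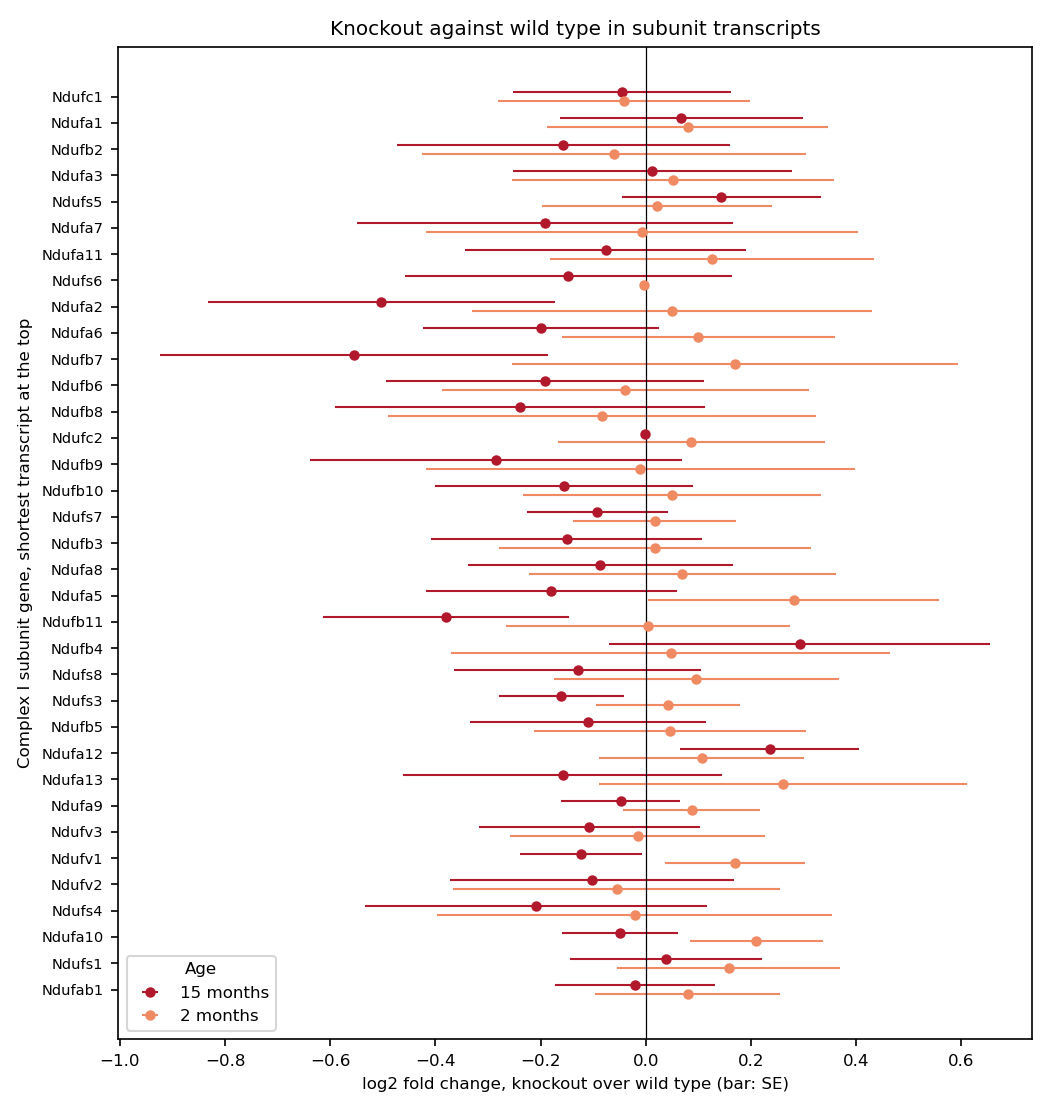
Points give the log2 fold change of knockout over wild type for each of 35 subunit genes at 15 months (dark) and 2 months (light), with the standard error as bars and genes ordered by transcript length. At 15 months 29 points lie left of 0 and at 2 months 10, and the bars of most genes cross 0.

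Averaged over both ages, 21 of 35 genes lay below 0 and 14 above, with a median of −0.04. Over all genes the median was 0.00 and 49.7% were below 0. With 1 library left out the members' median lay between −0.13 (30 below 0, without knockout replicate 1 at 15 months) and 0.06 (7 below 0, without wild-type replicate 2 at 2 months), the number below 0 was lowest, 5, without wild-type replicate 2 at 15 months, and with the length slope as a covariate the median was 0.04 with 7 below 0. Of the 35, 0 passed in edgeR (all genes 0.00644%; unadjusted p below 0.05 for 0 members, against 3.26% of all genes; DESeq2 and limma voom also 0). Ndufa12 had the smallest p. It was at 350.0, 270.1, 207 and 252 CPM in knockout hearts and at 232, 244, 217 and 224 CPM in wild type at 15 months, and at 391, 329 and 390.2 CPM in knockout and 259, 404 and 368 CPM in wild type at 2 months, overlapping at both ages (log2 fold change 0.17, SE 0.13). Ndufb11 followed with −0.19 (SE 0.18), and Ndufa10 with 0.08 (SE 0.08), which was at 415, 482, 418 and 459.8 CPM in knockout and 484, 449, 466 and 437 CPM in wild type at 15 months. Ndufs1 gave 0.10 (SE 0.14), Ndufs3 −0.06 (SE 0.09), Ndufs7 −0.04 (SE 0.10), Ndufs8 −0.02 (SE 0.18), Ndufv1 0.02 (SE 0.09), Ndufv2 −0.08 (SE 0.21), Ndufa1 0.07 (SE 0.18) and Ndufb8 −0.16 (SE 0.27).

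The knockout effect at 15 months minus that at 2 months was below 0 for 32 of 35 genes, with a median of −0.16, against 0.01 over all genes, of which 49.3% were below 0. None passed in edgeR's quasi-likelihood test, and 0% of all genes did. None was below an unadjusted p of 0.05, against 3.72% of all genes, and DESeq2 and limma voom called 0 members. Leaving out wild-type replicate 1 at 2 months put the median at 0.02, and leaving out wild-type replicate 2 at 15 months put it at 0.00, each with 17 of 35 below 0. Leaving out knockout replicate 1 at 15 months put it at −0.41, and leaving out wild-type replicate 2 at 2 months at −0.34, each with 35 of 35 below 0. It was also moved by over 1.5 times without knockout replicate 1 (−0.08) or 2 (−0.25) at 2 months and without knockout replicate 2 (−0.08) or 3 (−0.03) or wild-type replicate 3 (−0.25) at 15 months. The smallest p values belonged to Ndufv1 (−0.29, SE 0.18), Ndufa10 (−0.26, SE 0.17) and Ndufb7 (−0.73, SE 0.56). Ndufv1 was at 295, 314, 357 and 334 CPM in knockout hearts and 365, 358, 379 and 313 CPM in wild type at 15 months. Ndufb7 was at 304, 219 and 270.3 CPM in knockout and 184, 369 and 151 CPM in wild type at 2 months. Ndufs3 gave −0.20 (SE 0.18), Ndufs8 −0.23 (SE 0.36), Ndufs1 −0.12 (SE 0.28), Ndufs7 −0.11 (SE 0.21), Ndufv2 −0.05 (SE 0.41), Ndufa1 −0.01 (SE 0.35) and Ndufb8 −0.16 (SE 0.54).

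In knockout hearts most subunit transcripts were lower at 15 than at 2 months, and Ndufb6 passed the test. Of the 35 log2 fold changes 34 were below 0, against 49.4% of all genes, with a median of −0.78, against 0.01 over all genes. At a Benjamini-Hochberg adjusted p of 0.05 in edgeR's quasi-likelihood test 1 of 35 fell and 0 rose. Over all genes 1.18% fell and 1.07% rose (2.25% in either direction), so the share of the subunit genes that passed was near that of all genes. At an unadjusted p of 0.05, 29 of 35 were lower, against 14.1% of all genes, and 0 higher, against 12.6%. For 23 every heart at 15 months was below every heart at 2 months, against 11.3% of all genes, and for 0 above, against 8.83%. DESeq2 called 17 members, all lower, where it called 5.36% of all genes lower, and limma voom 3, where it called 2.14% lower.

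Ndufb6 (chromosome 4, 40270591 to 40279421, minus strand), a small single-pass subunit of the membrane arm, was at 134, 54.7, 53.6 and 74.5 CPM in knockout hearts at 15 months and at 249.5, 162 and 203 CPM at 2 months. Every aged heart was below every young one, and replicate 1 was the highest of the aged hearts. The log2 fold change was −1.37 (SE 0.33, edgeR adjusted p = 0.0435). The call was lost without any 1 of 10 of the 14 libraries, wild-type libraries included, with adjusted p values of 0.00364 to 0.193 over all 14 omissions. It was also lost in an edgeR fit of only the groups compared (adjusted p = 0.0857), with no low count filter (0.0868) and with the length slope as a covariate (−0.55, SE 0.17, adjusted p = 0.223). Of its exon length, 39.0% overlaps Smim27 on the other strand, and the strand setting of the counting is not given in the sources used here.

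Ndufa1 came next. It was at 187, 99.8, 90.3 and 124 CPM in knockout hearts at 15 months and at 275, 203 and 255 CPM at 2 months, with no overlap (log2 fold change −0.97, SE 0.25, edgeR adjusted p = 0.0549). Ndufb11 was at 204, 106, 102 and 137 CPM at 15 months and at 292, 242 and 262 CPM at 2 months, also with no overlap (−0.95, SE 0.25, edgeR adjusted p = 0.0584). Ndufb8 averaged 530.0 ± 275 CPM at 15 months (SD, n = 4) and 1183 ± 216 CPM at 2 months (SD, n = 3), and every aged heart was below every young one (−1.16, SE 0.38). In all 3 genes replicate 1 was the highest aged knockout heart.

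Core subunits covered a wide range with age in knockout hearts. Ndufv2 gave −0.70 (SE 0.29), Ndufs8 −0.65 (SE 0.25), Ndufs3 −0.42 (SE 0.13), Ndufs7 −0.16 (SE 0.14) and Ndufv1 −0.10 (SE 0.12), and none passed. Ndufs1 was the only member above 0. It was at 363, 481, 524 and 558 CPM at 15 months and at 308, 422 and 375 CPM at 2 months, where replicate 1 of the aged hearts lay inside the young range (0.39, SE 0.20, edgeR adjusted p = 0.224). All 9 accessory subunits of the matrix arm were below 0, with a median of −0.73, and so were all 19 of the membrane arm, with a median of −0.88. The core subunits had a median of −0.29. Their representative transcripts were longer, with a median of 1353.5 nt, against 875 nt for the matrix arm accessory subunits and 683 nt for those of the membrane arm.

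Among the accessory subunits of the matrix arm, Ndufa7 was at 249, 94.1, 72.8 and 122 CPM in knockout hearts at 15 months and at 434, 271 and 331 CPM at 2 months, without overlap (log2 fold change −1.36, SE 0.38, edgeR adjusted p = 0.0668). Ndufs4 was at 243, 101, 94.2 and 136 CPM at 15 months and at 345, 224 and 281 CPM at 2 months, where replicate 1 of the aged hearts lay inside the young range (−0.98, SE 0.35). The other 7 of this role lay between −1.23 (Ndufa2) and −0.33 (Ndufa9, a subunit near the ubiquinone site). Ndufab1, the acyl carrier protein with the longest transcript, was at 371, 257, 233 and 299 CPM at 15 months and at 409.7, 383 and 385 CPM at 2 months, every aged heart below every young one (−0.44, SE 0.16). Of the membrane arm, Ndufb7, Ndufb8 and Ndufb9 followed Ndufb6 with −1.25, −1.16 and −1.15 (SE 0.40, 0.38 and 0.38 in that order). The values nearest 0 in that arm were those of Ndufa10 (−0.12, SE 0.12), Ndufb3 (−0.56, SE 0.28), Ndufs5 (−0.59, SE 0.20) and Ndufa13 (−0.59, SE 0.33), which is also known as a cell death regulator.

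In knockout hearts the number of genes that passed turned on single libraries in both directions. Without replicate 1 at 15 months 30 of the 35 subunit genes fell, and 3523 of 15617 genes passed, 12.3% of all genes lower. Without any 1 of the other 6 knockout libraries 0 subunit genes passed in edgeR. At an unadjusted p of 0.05 there were 18 to 29, and the share of all genes below it was not counted for these omissions. The number of all genes that passed at an adjusted p of 0.05 was 49, 84 and 69 without replicates 1, 2 and 3 at 2 months, and 116, 89 and 94 without replicates 2, 3 and 4 at 15 months, against 349 with all libraries. Knockout replicate 1 at 15 months had the highest mitochondrially encoded share (46.0%) and a length slope of −0.09, whereas the slope was 0.09 to 0.24 in the other 3 knockout hearts of that age. Endothelial markers summed to 751 to 1492 CPM in knockout hearts at 15 months and to 774 to 944 CPM at 2 months, with the lowest of the aged values in replicate 1. None of the 7 markers was at 0 in any library, and 5 had positive log2 fold changes. The 3 skeletal muscle markers tested were all below 0, with a median of −1.40 and sums of 1090 to 1212 CPM at 15 months and 1620 to 1780 CPM at 2 months, and every aged knockout heart was below every young one. The other lists had medians of 0.47 (fibroblast, 6 of 8 above 0), 0.05 (macrophage, 5 of 7), 0.50 (smooth muscle and pericyte, 3 of 6), 4.41 (atrial, 3 of 4) and 1.69 (fat cell, 2 of 3). The part of these markers in the result was not tested. The 8 cardiac muscle markers summed to 35592 to 41220 CPM in knockout hearts at 15 months and to 34190 to 41990.4 CPM at 2 months.

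**Figure D3:**
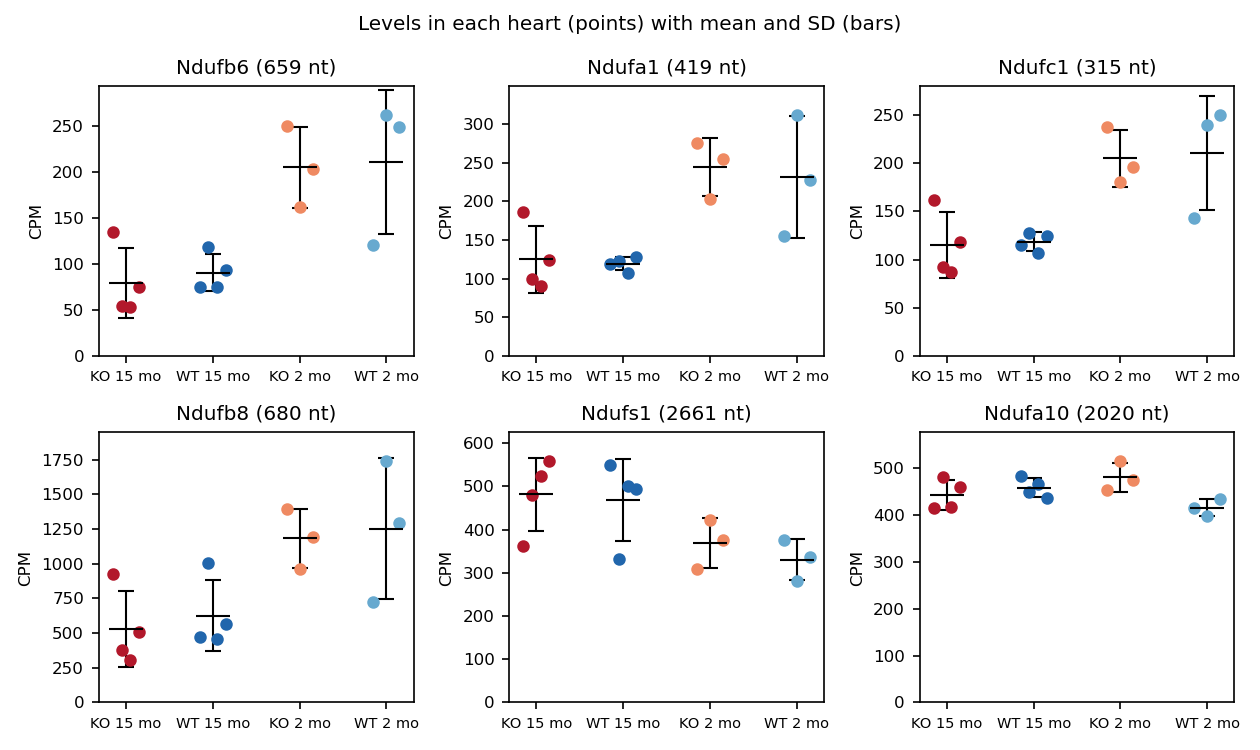
Points give the CPM of 6 subunit genes in each heart, with the mean (wide bar) and SD, in knockout and wild-type hearts at 15 months (n = 4 each) and at 2 months (n = 3 each). Ndufb6, Ndufa1, Ndufc1 and Ndufb8 sit lower at 15 than at 2 months in both genotypes, Ndufs1 sits higher, and Ndufa10 stays between 398 and 515 CPM.

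In wild-type hearts the picture with age was alike in sign, and no subunit gene passed. Of the 35 log2 fold changes 32 were below 0, against 51.7% of all genes, with a median of −0.63, against −0.02 over all genes. At an adjusted p of 0.05 in edgeR 0 of 35 passed, and 1.04% of all genes did. At an unadjusted p of 0.05, 20 of 35 were lower, against 12.7% of all genes, and 1 was higher, against 11.1%. For 7 genes all aged hearts were below all young ones, against 7.57% of all genes, and for 1, Ndufa10, they were above, against 8.6%. DESeq2 called 8 members, all lower, where it called 3.52% of all genes lower, and limma voom 0, where it called 0.406% lower. The 2 age comparisons share no hearts, but both take their spread from all 14 libraries, and each shares its hearts with the comparisons of genotypes. Markers of cell types also differed with age in wild type, and their part in the result was not tested. The mean log2 deviation of the 3 skeletal muscle markers was −0.48 to 0.07 at 15 months and 0.24 to 0.58 at 2 months, and that of the 8 cardiac muscle markers −0.03 to 0.19 at 15 months and −0.22 to −0.13 at 2 months, neither with overlap. By summed CPM both lists overlapped between ages. Skeletal muscle markers summed to 1316 to 1482 CPM at 15 months and 1441 to 1832 CPM at 2 months. Cardiac muscle markers summed to 36071 to 44083 CPM at 15 months and 32903 to 36987 CPM at 2 months. The medians of the log2 fold changes were −0.72 (3 of 3 below 0) for skeletal muscle, 0.17 (3 of 8) for cardiac muscle, −0.73 (8 of 8) for fibroblast, 0.28 (2 of 7) for endothelial, −0.45 (6 of 7) for macrophage, −0.32 (4 of 6) for smooth muscle and pericyte, −3.32 (4 of 4) for atrial and −2.36 (3 of 3) for fat cell markers. The atrial and fat cell transcripts were highest in wild-type replicate 1 at 2 months.

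Ndufa1 was at 119, 123, 108 and 128 CPM in wild-type hearts at 15 months and at 155, 312 and 227 CPM at 2 months (log2 fold change −0.95, SE 0.25, edgeR adjusted p = 0.0741). Ndufb6 was at 75.4, 118, 75.0 and 93.7 CPM at 15 months and at 120.4, 262 and 249 CPM at 2 months (−1.22, SE 0.32, edgeR adjusted p = 0.0790). Ndufc1, a small subunit of the membrane arm, was at 115, 128, 107 and 124 CPM at 15 months and at 143, 239 and 250.0 CPM at 2 months (−0.83, SE 0.22, edgeR adjusted p = 0.0790). In these 3 genes the aged and young hearts did not overlap, and the young heart nearest to the aged ones was replicate 1, the library with atrial transcripts. Without that library 6 members fell at an adjusted p of 0.05 in edgeR, and 511 of 16034 genes passed, 1.93% of all genes lower. Without knockout replicate 1 at 15 months, which is in neither group of this comparison but in the shared filter, scaling and spread, 8 members fell, with 2.92% of all genes lower. Other omissions weakened the result. Without wild-type replicate 2 at 2 months the median was −0.40, 6 members were below an unadjusted p of 0.05, against 21 with all libraries, and 38 genes passed, against 161. Without wild-type replicate 3 at 2 months 13 were below it, and without wild-type replicates 1, 3 or 4 at 15 months 10, 11 and 12, with 63, 49, 80 and 82 genes passing and 0 members in edgeR. Without wild-type replicate 2 at 15 months the median was −0.82, with 28 members below an unadjusted p of 0.05. The genes that passed in these omissions did so at an adjusted p of 0.05. The share of all genes below an unadjusted p of 0.05 was counted only with all 14 libraries.

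Ndufs1 was at 549.9, 331, 500.0 and 494 CPM in wild-type hearts at 15 months and at 375, 280.0 and 336 CPM at 2 months, higher in 3 of 4 aged hearts than in any young one (0.50, SE 0.20, edgeR adjusted p = 0.158). Ndufv1 gave 0.19 (SE 0.13), Ndufs7 −0.06 (SE 0.14), Ndufs3 −0.22 (SE 0.13), Ndufs8 −0.42 (SE 0.25) and Ndufv2 −0.66 (SE 0.29). Ndufb8 averaged 626 ± 258 CPM at 15 months (SD, n = 4) and 1253 ± 509 CPM at 2 months (SD, n = 3), with overlap (edgeR adjusted p = 0.144). Ndufa10 was at 484, 449, 466 and 437 CPM at 15 months and at 415, 398 and 436 CPM at 2 months, every aged heart above every young one (0.14, SE 0.12). The 7 genes whose aged hearts were all below the young ones were Ndufa1, Ndufa3, Ndufa12, Ndufab1, Ndufb6, Ndufc1 and Ndufc2. Of these Ndufab1 was at 299, 303, 283 and 291 CPM at 15 months and at 322, 449.6 and 342 CPM at 2 months (−0.34, SE 0.16). Ndufs4 gave −0.80 (SE 0.35) and Ndufa7 −1.18 (SE 0.38), both with wild-type replicate 2 at 15 months inside the young range.

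Most short genes were lower at 15 months, so the subunit genes were set against other genes of their length. Of the other genes with transcripts of up to 500 nt, 85.3% were below 0 in knockout and 83.9% in wild type. These genes were not split by kind. Among genes that are not members, the median change in knockout hearts was −0.81 for the 497 genes with representative transcripts of up to 500 nt, −0.69 for 501 to 750 nt, −0.54 for 751 to 1000 nt, −0.32 for 1001 to 1500 nt, −0.13 for 1501 to 2000 nt, −0.02 for 2001 to 3000 nt, 0.13 for 3001 to 5000 nt and 0.29 for the 2637 genes over 5000 nt. In wild-type hearts the same medians were −0.66, −0.63, −0.47, −0.27, −0.13, −0.01, 0.08 and 0.21. The members kept near this order only up to 1500 nt. Their medians in the first 4 ranges, of 3, 13, 7 and 5 genes, were −0.88, −0.995, −0.65 and −0.46 in knockout and −0.83, −0.71, −0.42 and −0.22 in wild type. The 4 members of 1501 to 2000 nt had lower medians, −0.68 in knockout and −0.61 in wild type, the 2 of 2001 to 3000 nt (Ndufs1 and Ndufa10) 0.13 and 0.32, and the 1 over 3000 nt (Ndufab1) −0.44 and −0.34. The 23 under 1000 nt were all below 0 in both genotypes, with medians of −0.88 in knockout and −0.69 in wild type. Of the 12 of 1000 nt or more, 11 were below 0 in knockout (median −0.45) and 9 in wild type (median −0.28).

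**Figure D4:**
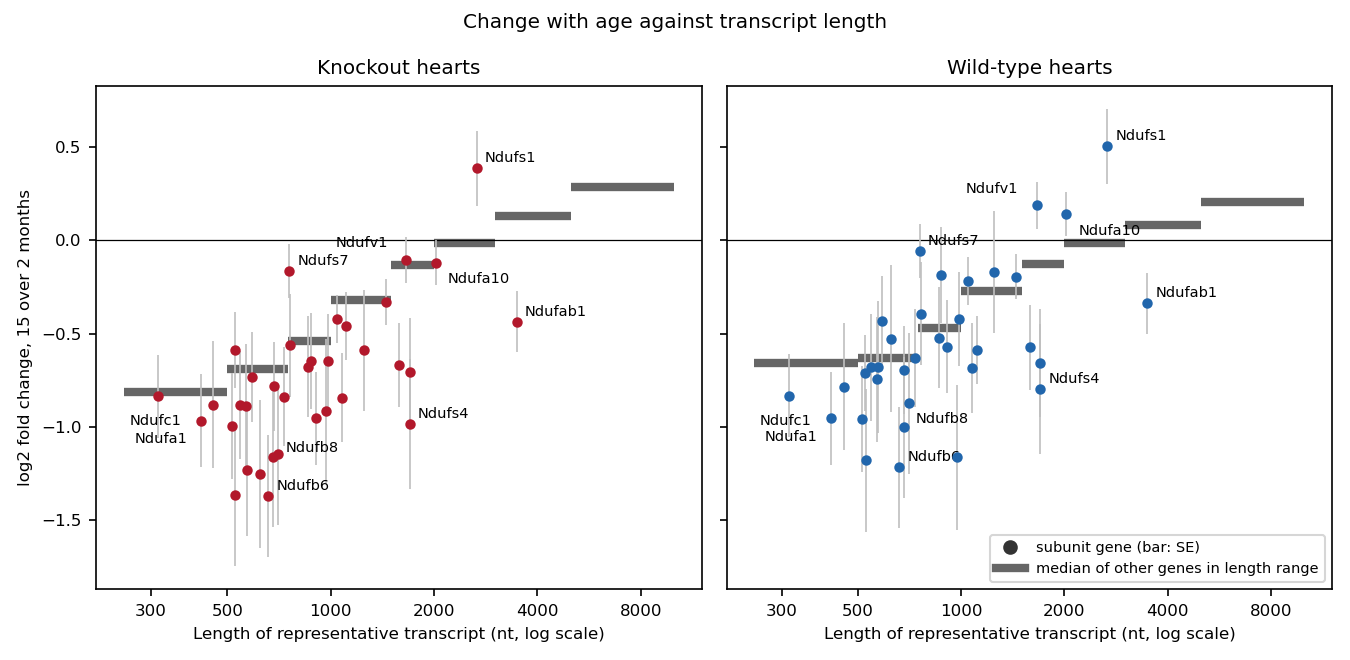
Points give the log2 fold change of 15 over 2 months with its standard error for 35 subunit genes against the length of the representative transcript, in knockout (left) and wild-type hearts (right), and grey bars give the median of all other genes in each length range (the first and last ranges are open ended). Most points lie on or below the grey bars, as do Ndufb6 and Ndufs4, and Ndufs7 and Ndufs1 lie above them.

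Relative to a smooth curve of the change on transcript length, fitted to the tested genes that are not members, the members were on balance slightly lower than genes of their length. In knockout hearts 28 of 35 lay below the curve, with a median distance of −0.18, and in wild-type hearts 24 of 35, with −0.11. The curve itself ran from −0.88 to 0.09 over the members' lengths in knockout and from −0.72 to 0.05 in wild type. Farthest below it in knockout were Ndufs4 (−0.82), Ndufb6 (−0.73) and Ndufa7 (−0.65), and in wild type Ndufb4 (−0.75), Ndufb6 (−0.65) and Ndufs4 (−0.65). Ndufs4, an accessory subunit whose loss in mice causes a Leigh-like encephalopathy, has a 1698 nt transcript, and other genes of 1501 to 2000 nt had a median of −0.13 in both genotypes. Ndufs7 (0.42 in knockout, 0.46 in wild type) and Ndufs1 (0.38 and 0.53 in the same order) were farthest above. Of the 6 core subunits 4 lay above the curve in both genotypes, and of the 9 accessory subunits of the matrix arm 0 in knockout and 3 in wild type.

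In the test with the length slope as a covariate, the median change with age was −0.15 in knockout and −0.06 in wild-type hearts, and no member passed. With the length curve of each library removed, the median was −0.43 in knockout and −0.25 in wild type for exon length, and −0.22 and −0.11 for representative transcript length. Ndufb6 then gave −0.78 in knockout for both kinds of length (SE 0.15, edgeR adjusted p = 0.0204, and SE 0.16, adjusted p = 0.0200). Ndufa7, an accessory subunit of the matrix arm, also passed for transcript length (−0.73, SE 0.17, edgeR adjusted p = 0.0391). Of all genes, 0.85% passed as lower in knockout with the exon length curve and 0.921% with the transcript length curve. In wild type Ndufb6 gave −0.64 for both (edgeR adjusted p = 0.0577 and 0.0569), and none passed. The length slope was lower in every 2-month library than in 6 of the 8 libraries at 15 months, so age and length slope can only be told apart through the spread within groups and the 2 exceptions.

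**Figure D5:**
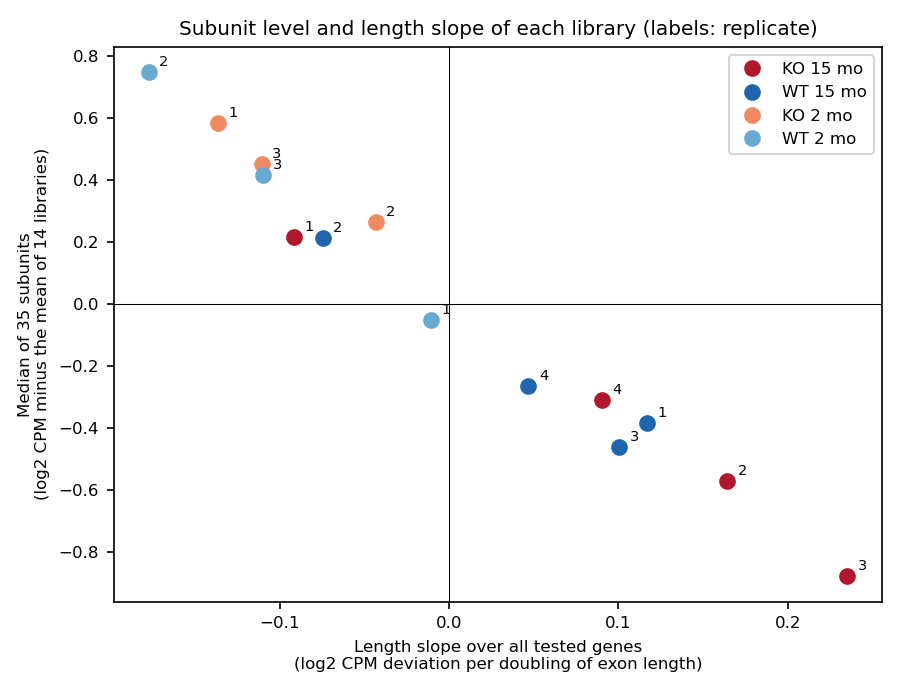
Each point is a library: its length slope over all genes tested on the horizontal axis and the median log2 CPM deviation of the 35 subunit genes on the vertical axis. The points run from wild-type replicate 2 at 2 months (slope −0.18, median 0.75) down to knockout replicate 3 at 15 months (slope 0.24, median −0.88), and knockout replicate 1 and wild-type replicate 2 at 15 months lie among the 2-month libraries.

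Other genes of the respiratory chain and of translation were mostly below 0 with age as well. Over all genes, 1.18% passed as lower in knockout and 0.425% in wild type. At an unadjusted p of 0.05, 14.1% were lower and 12.6% higher in knockout, and 12.7% lower and 11.1% higher in wild type. The lists below were not set against other genes of their length, and most short genes were below 0 with age. Of 40 nuclear-encoded subunits of complexes II to V, 36 were below 0 in knockout, with a median of −0.79, and 3 passed, all lower. Atp5k, a small subunit of the ATP synthase, gave −1.72 (SE 0.39, edgeR adjusted p = 0.0372), and Cyc1, a cytochrome of complex III, gave −0.79 (SE 0.17, edgeR adjusted p = 0.0318). In wild type 36 were below 0, with a median of −0.65, and 1 passed, Cox7c of complex IV (−1.27, SE 0.28, edgeR adjusted p = 0.0462). All 83 cytosolic ribosomal protein genes were below 0 in both genotypes, with medians of −1.01 in knockout, where 4 passed (Rps29 −1.08, SE 0.20, edgeR adjusted p = 0.0184), and −0.82 in wild type, where 1 passed (Rpl30 edgeR adjusted p = 0.0496). Of 18 complex I assembly factors tested, 17 were below 0 in knockout, with a median of −0.47, and 2 passed, Ndufaf3 (−0.75, SE 0.14, edgeR adjusted p = 0.0154) and Foxred1 (−0.51, SE 0.11, edgeR adjusted p = 0.0312). In wild type 14 were below 0, with a median of −0.28, and 0 passed in edgeR, with 4 lower at an unadjusted p of 0.05. Of 14 mitochondrial genes outside the chain, such as Cs and the Vdac channels, 10 were below 0 in knockout (median −0.18; Slc25a4, the heart's ADP/ATP carrier, fell by 0.76, SE 0.16, edgeR adjusted p = 0.0326) and 8 in wild type (median −0.04; 0 passed in edgeR, 1 higher and 2 lower at an unadjusted p of 0.05). The 13 regulators of respiratory genes, among them Ppargc1a, Esrra and Nrf1, had medians of 0.02 in knockout and 0.10 in wild type, and in edgeR 0 passed. At an unadjusted p of 0.05, 2 were higher and 1 lower in knockout, and 4 higher and 1 lower in wild type.

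The 7 mitochondrially encoded subunits of complex I did not go the way of the nuclear-encoded ones. With age 6 of 7 were above 0 in knockout (median 0.28) and 7 of 7 in wild type (median 0.11). Knockout against wild type gave 6 of 7 above 0 at both ages, with medians of 0.55 at 15 months and 0.31 at 2 months, and in edgeR 0 passed in any of these comparisons, with 1 of 7 below an unadjusted p of 0.05 between genotypes at 15 months and 1 with age in knockout. Of all genes, 3.97% were below it in that comparison of genotypes, and 12.6% were below it and higher with age in knockout. The mean log2 deviation of the 7 genes overlapped between groups in each of these comparisons. In wild type it was −0.11, 0.04 and −0.85 at 2 months (lowest in replicate 3) and 0.37, −0.48, −0.35 and 0.005 at 15 months. In knockout it was 0.14, −0.20 and 0.07 at 2 months and 0.93, −0.04, 0.02 and 0.45 at 15 months. The smallest p belonged to mt-Nd3, at 225, 162, 154 and 185 CPM in knockout hearts and at 153, 80.2, 126 and 132 CPM in wild type at 15 months. Every knockout heart was above every wild-type heart (log2 fold change 0.56, SE 0.18, unadjusted p = 0.00797, edgeR adjusted p = 0.999). The comparison of genotypes at 15 months and that of ages in knockout share the aged knockout hearts, in which mt-Nd3 was 0.73 higher than at 2 months on the log2 scale (SE 0.20, edgeR adjusted p = 0.0649).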

How the data were processed

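The deposited table holds raw counts of reads per gene for 14 libraries, made by the authors from total RNA of whole hearts with a strand-specific kit after ribosomal RNA removal, per the labels' protocols. The submitters' processing notes name cutadapt 1.16, STAR 2.7.3a, featureCounts 1.6.3, DESeq2 1.26.0 and GRCm38. How the counting treated strand and reads with several matches, and which annotation release it used, is not given in the sources used here. Where genes overlap or have near copies, their reads may therefore have been assigned to either. Library totals of 20218992 to 30404416 counts left every subunit gene at 1506 reads or more, so counting error was small beside the spread between hearts.

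Here the counts were fitted with edgeR 4.0.16 (R 4.3.3; TMM scaling, filterByExpr with a minimum count of 10 and total of 15, robust dispersion and quasi-likelihood F test) over all 14 libraries in 4 groups. There were 6 contrasts, and p-values were adjusted by Benjamini-Hochberg over 15528 genes within each contrast, with a threshold of 0.05. The standard error is the log2 fold change divided by the root of F. CPM values use the TMM library sizes, and log2 CPM a prior count of 2. DESeq2 1.42.0 and limma 3.58.1 (voom) were alternatives, as were other scaling and filters, leaving out each library, a replicate block, removing the genes of the mitochondrial genome, and length terms: the library's length slope as a covariate, or a lowess curve (span 0.3) of each library's log2 CPM deviation on gene length as an offset. The form on representative transcript length was added after seeing the data. Exon and transcript lengths came from GENCODE M21, promoter windows from RefSeq, and copies from BLAST 2.17.0. The fit was tested on simulated data.

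Members and gene lists were chosen with earlier results of these data known. Named members are the 3 with the smallest p in each contrast, those past the threshold, the core subunits, Ndufa1 and Ndufb8, and the extremes in level and length. Up to 2 genes with the smallest p are named per other list. Ndufs4, Ndufa7, Ndufb4, Ndufs5 and others named with the transcript lengths or the promoters were chosen after their values were seen. No 2 libraries agree within sampling noise (chi-square per degree of freedom at least 19.8).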

Additional observations from a re-analysis of the deposited data

Results flagged for a closer look

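In 6 of the 70 sets of CPM values of 1 subunit gene in 1 group of 4 hearts, a single heart lay far from the other 3, and in all 6 it was wild-type replicate 2 at 15 months, the high one. Chance gives about 1 such set in 20, and the genes share that library. In it Ndufa2 was at 179 CPM (the other 3 hearts 76.5 to 83.3), Ndufb7 at 288 CPM (111 to 135) and Ndufb11 at 248 CPM (153 to 158). Ndufa8, a subunit of the membrane arm, was at 322 CPM (162 to 171), Ndufb10 at 367 CPM (232 to 238) and Ndufv3 at 274 CPM (159 to 167). That library's length slope was −0.07, against 0.05 to 0.12 in the other 3 wild-type hearts of its age, and its part in these values was not tested.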

How the results depend on the processing

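Between ages the number of subunit genes past the threshold depended on the setting. In knockout hearts it was 1, but 17 with DESeq2 or a threshold of 0.1, 4 without the low count filter, 3 with limma voom, 2 with the transcript length curve, 0 with the length slope, in a fit of only the groups compared or with a replicate block, and 0 to 30 when 1 library was left out. In wild-type hearts it was 0, but 8 with DESeq2, 5 at 0.1, 2 without the filter, and 0 to 8 when 1 library was left out. Over all genes DESeq2 called 1622 in knockout and 1100 in wild type, limma voom 483 and 153, and the block 70 and 55, against 349 and 161. A threshold of 0.1 called 10.4% of all genes (5.84% lower) in knockout and 4.55% (2.38% lower) in wild type, and no filter 1.53% (0.835% lower) and 0.749% (0.388% lower). The transcript length curve called 1.96% of all genes (0.921% lower) in knockout. The replicate numbers share only a number (correlations of same-numbered pairs −0.44 to 0.31), so the block is no test of pairing. The median change of the 35 genes was −0.15 (length slope), −0.43 (exon length curve) and −0.22 (transcript length curve) in knockout, and −0.062, −0.25 and −0.11 in wild type.

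Signs turned for named genes that were not past the threshold, and the cause was not tested. With the length slope the log2 fold change was −0.069 (Ndufs1), 0.017 (Ndufs8) and 0.080 (Ndufv2) for knockout over wild type at 15 months, 0.072 (Ndufs8) and 0.039 (Ndufv2) averaged over ages, −0.064 (Ndufs1), 0.068 (Ndufs7) and 0.044 (Ndufv2) for 15 over 2 months in knockout, 0.12 (Ndufs7) and 0.062 (Ndufs8) in wild type, and 0.081 (Ndufv2), 0.042 (Ndufa1) and 0.0012 (Ndufb8) for the difference of the effects. With the exon length curve it was −0.0030 (Ndufs1, 15 months), 0.024 (Ndufs8, averaged), 0.054 (Ndufv1) and 0.16 (Ndufs7) with age in knockout, 0.20 (Ndufs7) in wild type and 0.042 (Ndufa1) for the difference. With the transcript length curve it was 0.038 (Ndufs7, 15 months), 0.031 (Ndufs7) and 0.029 (Ndufs8) averaged, 0.45 (Ndufs7), 0.089 (Ndufv1) and 0.032 (Ndufs3) with age in knockout, 0.43 (Ndufs7) and 0.14 (Ndufs3) in wild type, and 0.014 (Ndufs7) and 0.037 (Ndufa1) for the difference, which was 0.0044 for Ndufa1 with genes of a mean CPM of at least 1.

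Leaving out 1 library at a time gave, for knockout over wild type at 15 months, −0.19 to 0.20 (Ndufa1), −0.65 to 0.088 (Ndufb8), −0.10 to 0.15 (Ndufs1), −0.17 to 0.022 (Ndufs7), −0.34 to 0.053 (Ndufs8) and −0.39 to 0.12 (Ndufv2). At 2 months it gave −0.13 to 0.36 (Ndufa1), −0.35 to 0.23 (Ndufb8), −0.036 to 0.11 (Ndufs3), −0.052 to 0.067 (Ndufs7), −0.031 to 0.38 (Ndufs8) and −0.27 to 0.19 (Ndufv2). Averaged it gave −0.054 to 0.21 (Ndufa1), −0.37 to 0.0025 (Ndufb8), −0.076 to 0.019 (Ndufs7), −0.12 to 0.13 (Ndufs8) and −0.22 to 0.044 (Ndufv2). For the difference it gave −0.29 to 0.20 (Ndufa1), −0.57 to 0.17 (Ndufb8), −0.19 to 0.0047 (Ndufs7) and −0.34 to 0.17 (Ndufv2), and with age in wild type −0.17 to 0.012 (Ndufs7). With 3 or 4 hearts a group and a median within-group SD of 0.37, small differences between genotypes could not be told from 0.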
